A study of Homo sapiens with 18 samples.

Results

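The transcripts of GNAS, the gene that encodes the stimulatory G protein alpha subunit Gαs, were followed through HEK293 lines with and without Gαs. Every transcript that the GENCODE annotation assigns to GNAS was taken, whatever its level, together with every transcript of the antisense gene GNAS-AS1. Of 58 annotated GNAS transcripts, 56 were matched to the 184844 transcripts counted, and 52 of these had a count in at least 1 of the 18 libraries. None of the 4 annotated GNAS-AS1 transcripts was matched, so GNAS-AS1 was not analysed here. A further 14743 transcripts with a count had no match in this annotation, and whether any belongs to either gene is not known, so sums over GNAS cover the matched transcripts.

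HEK293 is a human embryonic kidney cell line. Poly-A selected RNA was sequenced from the wildtype line, from a line made Gαs KO by CRISPR–Cas9 editing and from a line lacking both β-arrestins (β-arr1/2 KO). All cells, wildtype included, carried a transfected plasmid for an HA-tagged receptor and were serum starved overnight, and 48 h after transfection they received vehicle or 1 μM isoproterenol, a β-adrenergic agonist, for 1 h. Each line and treatment had 3 libraries labelled as biological replicates. The guide RNAs, the edited position and whether the knockout line is a single clone are not given in the sources used here, so a difference between lines covers everything in which those lines differ.

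Gαs couples hormone receptors to adenylyl cyclase, the enzyme that makes cyclic AMP. GNAS is an imprinted locus with several first exons, among them those of NESP55 (a neuroendocrine secretory protein), XLαs (an extra-large form of Gαs), exon A/B (also called 1A, which starts transcripts not known to make full Gαs) and exon 1 of Gαs, and transcripts from all of them splice onto a shared exon 2. Exon 3 is an alternative exon that separates long from short Gαs, and an additional CAG may be placed at the junction with exon 4. GNAS-AS1 is transcribed the opposite way across the NESP55 start.

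GNAS lies on the plus strand of GRCh38 at chr20:58839718-58911192, and GNAS-AS1 on the minus strand at chr20:58818919-58850903. The junction into exon 2, which starts at position 58895612, sorts the transcripts by their origin. The lines below hold the 20 bases upstream in lower case and the first 20 bases of exon 2 in capitals. They are shown because they tell from where a transcript reaches exon 2: the first from Gαs exon 1, the second from exon A/B, the third from the first exon of GNAS-220, a short non-coding transcript, and the fourth from intron 1 read without splicing.
GNAS-210: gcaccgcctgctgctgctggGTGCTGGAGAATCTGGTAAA
GNAS-234: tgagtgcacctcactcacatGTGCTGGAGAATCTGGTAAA
GNAS-220: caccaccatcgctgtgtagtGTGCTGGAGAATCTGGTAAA
GNAS-245: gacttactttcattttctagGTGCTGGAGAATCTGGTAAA

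Intron sequence also runs into exon 3, which starts at position 58898941, in GNAS-255, and into exon 4, which starts at position 58903531, in GNAS-232. In the lines that show these passages, the exon is in capitals.
GNAS-255: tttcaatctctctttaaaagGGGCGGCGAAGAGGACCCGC
GNAS-232: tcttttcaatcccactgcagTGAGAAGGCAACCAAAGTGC

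The 4 spliced Gαs mRNAs share their first and last exons and differ between the end of exon 2, at position 58895684, and the start of exon 4. Capitals mark what lies between these exons: the 45 bases of exon 3, exon 3 with CAG, nothing, and CAG alone.
GNAS-210: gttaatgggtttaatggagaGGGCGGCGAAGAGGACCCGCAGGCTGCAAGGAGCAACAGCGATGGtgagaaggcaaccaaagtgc
GNAS-207: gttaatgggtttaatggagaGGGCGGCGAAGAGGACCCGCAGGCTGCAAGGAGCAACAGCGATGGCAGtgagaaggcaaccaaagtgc
GNAS-201: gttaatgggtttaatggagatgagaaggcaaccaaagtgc
GNAS-211: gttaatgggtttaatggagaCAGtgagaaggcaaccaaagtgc

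**Figure D1:**
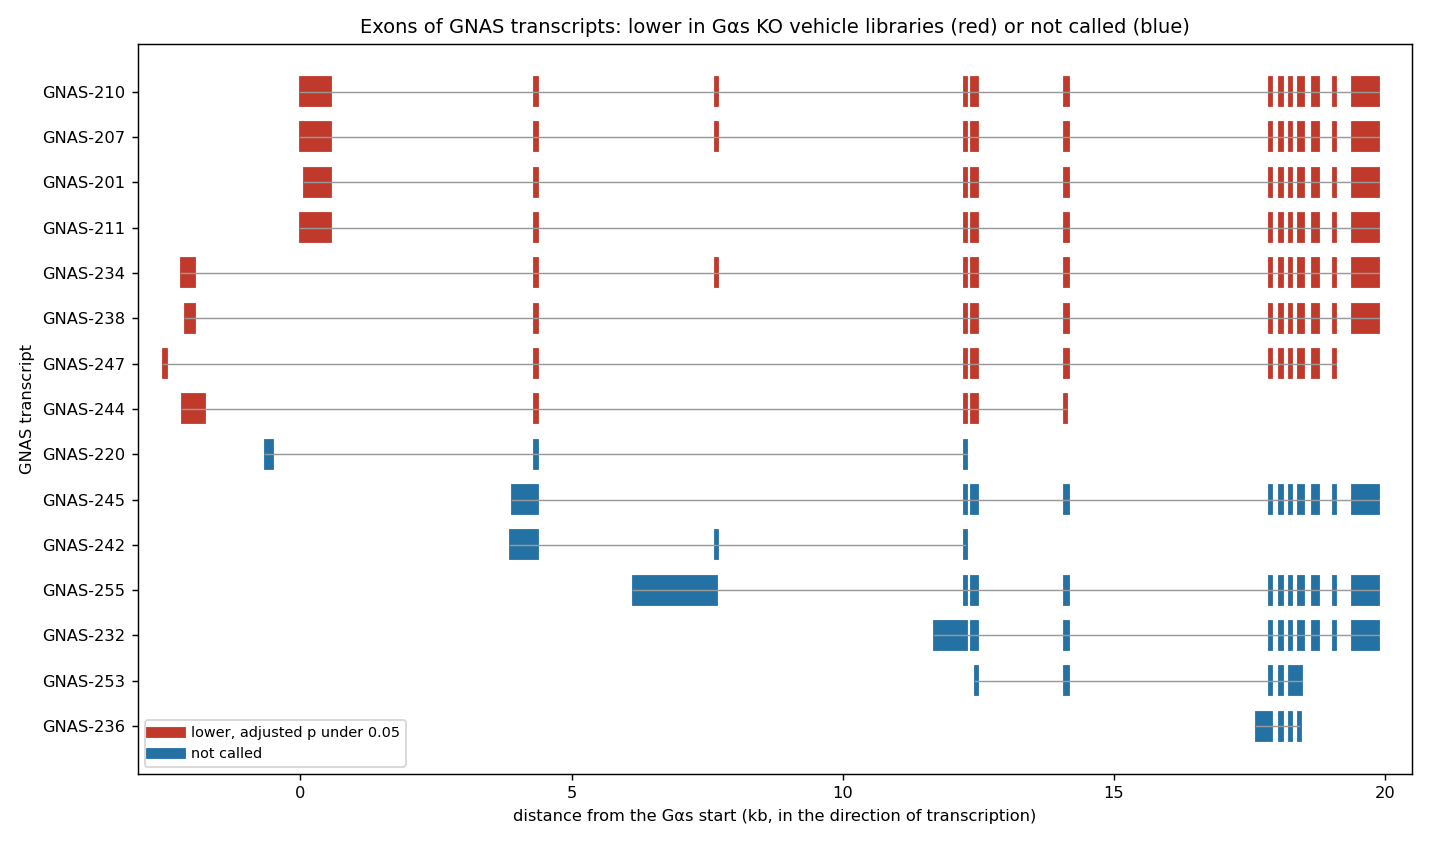
Exons (boxes) and introns (lines) of 15 GNAS transcripts chosen for their structure, drawn to scale against the distance from the Gαs start in kb; red transcripts were called lower in Gαs KO than in wildtype vehicle cells and blue transcripts were not called. All 4 Gαs mRNAs are red, and of the 7 blue transcripts all but GNAS-220 start downstream of Gαs exon 1.

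The values are the authors' expected counts per transcript, which are estimates that divide reads among transcripts sharing sequence, and levels are given as CPM (counts scaled to a common library total) after correction for library composition. The libraries held 17908597 to 25019834 expected counts. The division of reads matters at this locus: each of the 4 Gαs mRNAs had at most 1 stretch of 31 bases found in no other GNAS transcript, but together they had 278. GNAS-220 had 145 such stretches, GNAS-255 had 1501 and GNAS-232 had 546. Sums over transcripts are therefore firmer than the split within them. The strand setting of the counting is not given in the sources used here, and 1127 of the 3657 exonic bases of GNAS-AS1 are shared with GNAS exons, so reads from there could not be told apart by strand.

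The label of the cells was checked against marker genes. KRT8, KRT18 and VIM, of the epithelial and mesenchymal cytoskeleton, lay between 219 and 1509 CPM in all libraries, and NEFL, a neurofilament gene known to be made by HEK293 cells, between 86.9 and 344 CPM, while NEFM, another neurofilament gene, lay between 0.757 and 2.47 CPM. NEFL was higher in Gαs KO than in wildtype cells, by 1.82 on the log2 scale with vehicle. PAX2 and LHX1 of the embryonic kidney stayed at or under 7.09 CPM. Of the 9 markers of blood, hepatocytes, endothelium and fibroblasts, CD3E and HBB were at 0 in every library and the highest, the fibroblast marker LUM, reached 2.15 CPM. LUM was higher in Gαs KO than in wildtype cells by 2.13 on the log2 scale with vehicle (edgeR adjusted p = 0.00564), while DCN, which also marks fibroblasts, stayed at or under 0.196 CPM, and the part of such cells in the results was not tested. The first wildtype vehicle library stood apart at GNAS: GNAS-202, a coding transcript of 477 bases that starts in Gαs exon 1, was given 7831 counts there and at most 161 in any other library.

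Summed over all its transcripts, GNAS, the gene targeted in the knockout, fell without reaching 0. In wildtype vehicle cells GNAS stood at 1752, 1067 and 1131 CPM, and in Gαs KO vehicle cells at 65.5, 61.3 and 71.3 CPM. With isoproterenol the wildtype libraries stood at 1209, 1284 and 1175 CPM, and the Gαs KO libraries at 62.9, 69.1 and 70.0 CPM. Every Gαs KO library lay far under every wildtype library.

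GNAS was thus 5.01% ± 0.383 (SD, n = 3) of the wildtype mean with vehicle and 5.51% ± 0.315 with isoproterenol. The SD of such a remainder, here and below, covers the Gαs KO libraries and leaves out the spread of wildtype. For GNAS in wildtype vehicle cells this was 1317 ± 379 CPM. The difference was -4.32 on the log2 scale with vehicle (95% confidence interval -4.64 to -4.00; 19.9-fold lower; edgeR quasi-likelihood test, adjusted p = 9.3e-12). With isoproterenol it was -4.18 (-4.50 to -3.86; 18.2-fold lower; edgeR adjusted p = 1.1e-11). These adjusted p-values are over 15530 genes, of which 31.3% were called in either direction with vehicle and 29.9% with isoproterenol, at an adjusted p under 0.05. Against β-arr1/2 KO cells, the other edited line, GNAS was lower in Gαs KO cells by 24.0-fold with vehicle (edgeR adjusted p = 3.39e-12) and by 18.2-fold with isoproterenol (edgeR adjusted p = 6.16e-12). Of all genes, 26.2% and 31.1% were called in these comparisons. Less RNA per cell and fewer cells that make it cannot be told apart in bulk RNA, and both treatments of a line were cultured from that line, so they do not replicate the editing.

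The remainder was not spread evenly over the transcripts. The sum was first divided by structure: the 4 Gαs mRNAs, 20 transcripts holding at least 100 bases of intron sequence, and 32 others, among them most of the transcripts from exon A/B. The 4 Gαs mRNAs stood at 799, 698 and 840 CPM in wildtype vehicle cells and at 33.5, 31 and 39.7 CPM in Gαs KO vehicle cells. The intron-holding transcripts stood at 15.8, 18.9 and 24.0 CPM in wildtype vehicle cells and at 15.2, 14.0 and 19.9 CPM in Gαs KO vehicle cells. The first pair of groups was wide apart and the second overlapped.

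With isoproterenol the Gαs mRNAs stood at 797, 822 and 729 CPM in wildtype and 37.0, 41.0 and 41.5 CPM in Gαs KO cells. The intron-holding transcripts stood at 19.5, 29.3 and 31.8 CPM in wildtype and 16.9, 14.5 and 16.9 CPM in Gαs KO cells. Here both pairs were apart, the second by little.

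The Gαs mRNAs were lower by 22.4-fold with vehicle (log2 difference -4.49, 95% interval -4.71 to -4.27; edgeR adjusted p = 1.76e-14) and by 19.7-fold with isoproterenol (-4.30, -4.52 to -4.08; edgeR adjusted p = 3.05e-14). Of the wildtype mean, 4.46% ± 0.572 and 5.09% ± 0.317 (SD, n = 3) remained. For the intron-holding transcripts 83.6% ± 15.8 remained with vehicle, a log2 difference of -0.26 (-0.63 to 0.12; edgeR adjusted p = 0.295) that was not called. With isoproterenol 59.9% ± 5.23 remained, and the intron-holding transcripts fell by 0.74 on the log2 scale (interval -1.12 to -0.36; edgeR adjusted p = 0.00473). The vehicle and isoproterenol intervals of these transcripts overlap, and a difference between treatments was not shown. The intervals of the Gαs mRNAs and of the intron-holding transcripts did not overlap in either treatment.

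In terms of make-up, intron-holding transcripts were 0.904%, 1.77% and 2.12% of GNAS counts in the wildtype vehicle libraries and 23.2%, 22.9% and 27.9% in the Gαs KO vehicle libraries. With isoproterenol they were 1.61%, 2.28% and 2.71% in wildtype and 26.8%, 20.9% and 24.2% in Gαs KO cells. The β-arr1/2 KO libraries lay between 2.38% and 4.19%. All Gαs KO libraries were thus above all others. With 3 libraries a group, an exact two-sided permutation test cannot go below p = 0.1, and it gave p = 0.1 for both treatments (0.272 after adjustment over 13 shares in 9 comparisons).

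**Figure D2:**
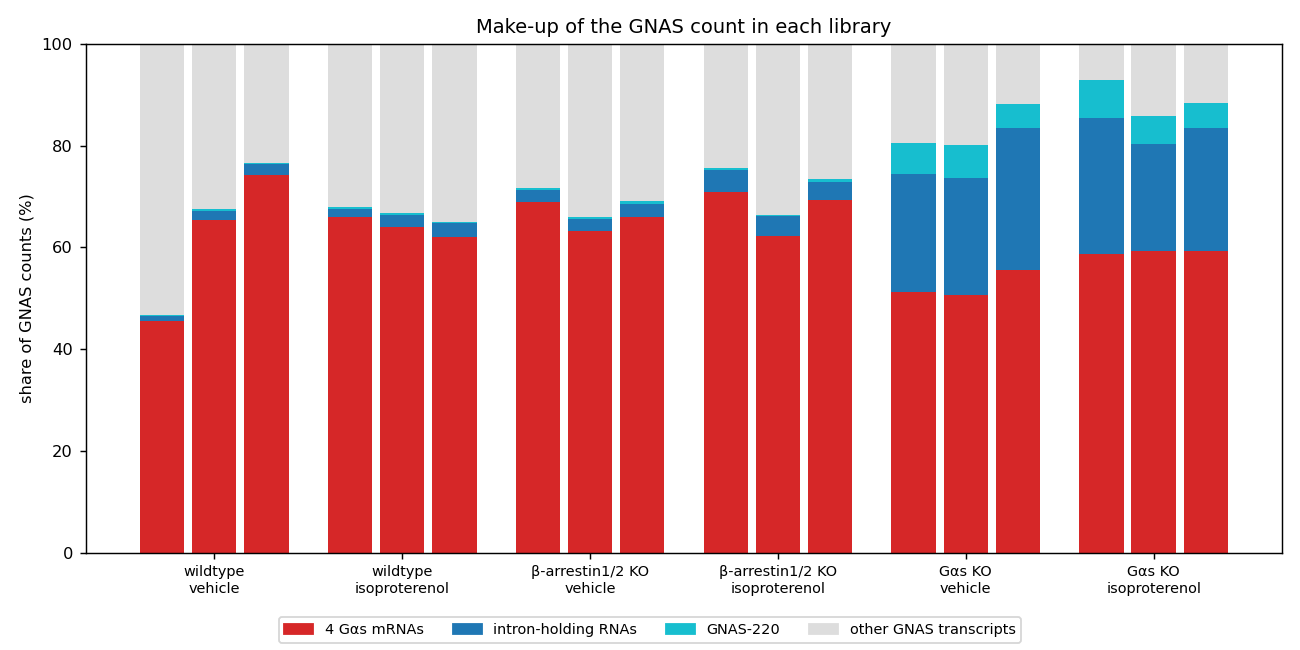
Share of GNAS counts (percent, vertical axis) given to the 4 Gαs mRNAs, intron-holding RNAs, GNAS-220 and other transcripts, with 1 stacked bar for each of the 18 libraries. The Gαs KO libraries have the intron-holding share at 20.9 to 27.9%, against at most 4.19% in the other lines.

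The transcripts were then divided by where they start. Those starting at exon A/B (15 transcripts), at or just past Gαs exon 1 (11 transcripts) and at NESP55 (12 transcripts) fell in both treatments. Of the 11, GNAS-233, GNAS-248, GNAS-251 and GNAS-256 start in intron 1. Those starting further inside the gene (9 transcripts) were called lower with isoproterenol and not with vehicle. The test of that difference between treatments gave -0.58 (edgeR adjusted p = 0.888). GNAS-220 was not called in either treatment. These classes were made from 5′ ends, by linking neighbouring starts at most 2 kb apart. A/B and Gαs starts are joined in this way through GNAS-220 and form 1 class under the 2 kb rule fixed for the report. That class was 25.6-fold lower with vehicle and 22.8-fold lower with isoproterenol. A/B, GNAS-220 and Gαs starts are given apart here as separated by a 500-base rule.

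**Figure D3:**
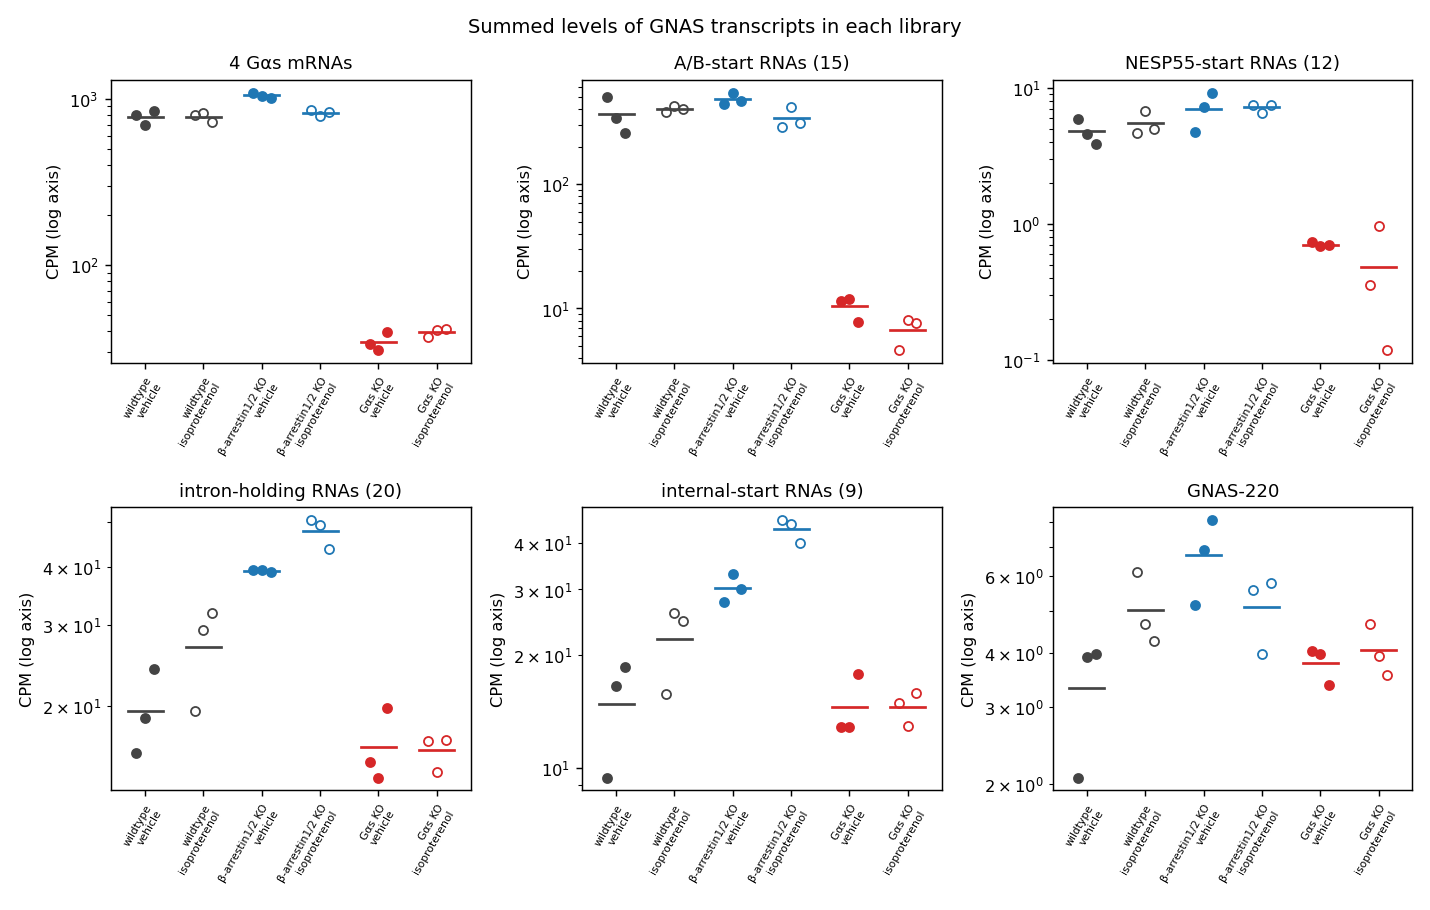
Summed level of 6 sets of GNAS transcripts in CPM (log axis, with its own range in each panel) in the 6 groups; points are libraries and the horizontal bar is the mean of 3. The Gαs mRNAs lie at 31 to 41.5 CPM in Gαs KO cells, far under the 698 to 840 CPM of wildtype cells, while the Gαs KO vehicle points of the intron-holding RNAs, the internal starts and GNAS-220 overlap those of wildtype.

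The A/B class stood at 503, 341 and 260 CPM in wildtype vehicle cells and at 11.5, 11.9 and 7.74 CPM in Gαs KO vehicle cells. With isoproterenol it stood at 383, 421 and 404 CPM in wildtype and at 4.65, 8.03 and 7.60 CPM in Gαs KO cells. No Gαs KO library came near a wildtype one.
The class was lower by 35.5-fold with vehicle (log2 difference -5.15, -5.72 to -4.58; edgeR adjusted p = 7.55e-10) and by 59.6-fold with isoproterenol (-5.90, -6.49 to -5.30; edgeR adjusted p = 2.08e-10). Of the wildtype mean, 2.82% and 1.68% remained. As a share of GNAS counts, A/B transcripts were 27.9% ± 4.54 (SD, n = 3) in wildtype and 16% ± 4.52 in Gαs KO cells with vehicle, and 32.9% ± 1.36 and 9.95% ± 2.27 with isoproterenol. The libraries did not overlap (exact permutation p = 0.1 each, the smallest possible). Relative to the A/B class and the Gαs mRNAs alone, the A/B share was 31.7% and 23.2% with vehicle, where libraries overlapped, and 34.0% and 14.3% with isoproterenol, where they did not.

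The class starting at or just past Gαs exon 1 was lower by 25.4-fold with vehicle and by 19.0-fold with isoproterenol. Its wildtype vehicle libraries stood at 1232, 700 and 845 CPM, and the first of them held the high GNAS-202 counts. The NESP55 class was low in every library: 5.93, 4.54 and 3.86 CPM in wildtype vehicle cells and 0.732, 0.685 and 0.700 CPM in Gαs KO vehicle cells. With isoproterenol it was 4.65, 6.77 and 5.02 CPM in wildtype and 0.358, 0.971 and 0.119 CPM in Gαs KO cells.
The groups did not overlap, and the class was lower by 6.72-fold with vehicle (log2 difference -2.75, -3.59 to -1.90; edgeR adjusted p = 6.97e-05) and by 11-fold with isoproterenol (-3.46, -4.35 to -2.56; edgeR adjusted p = 1.21e-05). Restricted to its coding transcripts, it was lower by 26.4-fold and 23.4-fold. Without Gαs KO isoproterenol library 2, the highest of its group, the isoproterenol difference was -4.45. The last Gαs KO isoproterenol library lay under 0.162 CPM, the level of 3 counts in these libraries.

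Nearly nothing was counted for the XLαs class (8 transcripts). No library held more than 0.245 CPM, and the isoproterenol libraries of both edited lines were all at 0, so no difference was detectable at this depth.

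The class starting inside the gene, which holds 9 transcripts that begin in introns or in late exons, stood at 9.41, 16.5 and 18.6 CPM in wildtype vehicle cells and at 12.9, 12.9 and 17.8 CPM in Gαs KO vehicle cells. The Gαs KO libraries lay within the wildtype range, and the log2 difference was -0.03 (-0.50 to 0.44; edgeR adjusted p = 0.939). With isoproterenol the class stood at 15.8, 25.9 and 24.7 CPM in wildtype and at 14.9, 12.9 and 15.8 CPM in Gαs KO cells. The groups overlapped slightly, and the class fell by 0.61 on the log2 scale (-1.07 to -0.14; edgeR adjusted p = 0.0468). That call was lost without wildtype library 2 or 3 or without any 1 of the Gαs KO libraries (adjusted p = 0.072 to 0.176, difference -0.67 to -0.48). As a share of GNAS counts, the class made up 21.9% with vehicle and 21.7% with isoproterenol in Gαs KO cells, against 1.24% and 1.81% in wildtype cells, with no overlap (exact permutation p = 0.1 each). GNAS-232, GNAS-236, GNAS-242, GNAS-245, GNAS-253 and GNAS-255 are in this class and also among the intron-holding transcripts. The shares of both sets therefore count much of the same RNA and are not separate results.

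GNAS-220 is a 278-base non-coding transcript at chr20:58890643-58903585, that starts between exon A/B and Gαs exon 1 and joins its own first exon to exon 2 and then, with CAG and without exon 3, to exon 4. It had 38, 67 and 68 counts in wildtype vehicle libraries and 83, 81 and 77 counts in Gαs KO vehicle libraries. With isoproterenol it had 108, 88 and 78 counts in wildtype and 91, 77 and 60 counts in Gαs KO cells. In CPM the groups overlapped in both treatments.
Summed as a class of its own, GNAS-220 differed by 0.20 on the log2 scale with vehicle (-0.34 to 0.73; edgeR adjusted p = 0.597) and by -0.31 with isoproterenol (-0.83 to 0.22; edgeR adjusted p = 0.396). The falls of the Gαs mRNAs lie outside these intervals. Its share of GNAS counts was 0.278% in wildtype and 5.79% in Gαs KO cells with vehicle, and 0.411% and 6.06% with isoproterenol.

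Single transcripts were tested among all 67941 transcripts that passed the filter on low counts. Of the GNAS transcripts, 35 reached a mean of 10 counts in some group, and 34 were tested: 33 of those 35 and GNAS-209. The 2 others, GNAS-219 and GNAS-249, held at most 18.3 and 34.4 counts in a library. In Gαs KO against wildtype cells, 13 of the 34 were called lower and none higher with vehicle, where 2.6% of all transcripts tested were called lower and 1.58% higher. With isoproterenol it was also 13 lower and none higher, with 2.39% of all transcripts lower and 1.25% higher. DESeq2's Wald test called 18 lower and none higher in each treatment, and 21 and 19 of the 34 had an unadjusted edgeR p under 0.05 in either direction.
By both treatments, 10 transcripts were called lower. With vehicle 8 of 13 A/B transcripts, 5 of 10 starting at or just past Gαs exon 1, none of 3 NESP55 transcripts and none of 7 internal transcripts were called. With isoproterenol it was 7, 4, 1 and 1. The 5 were the 4 Gαs mRNAs and GNAS-248, which starts in intron 1.

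**Figure D4:**
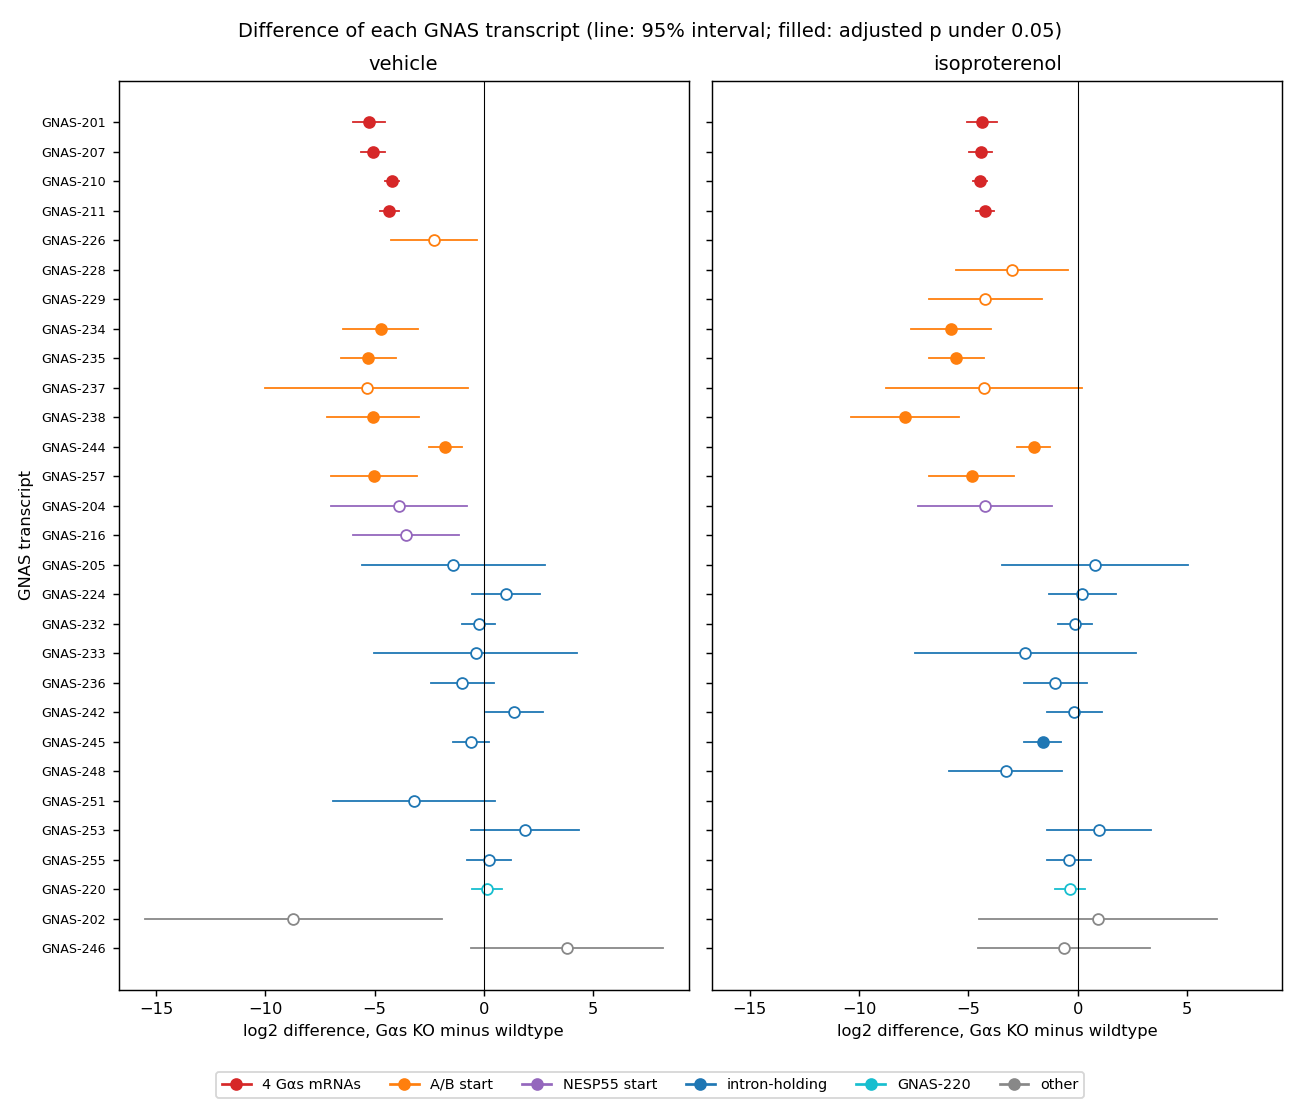
Log2 difference, Gαs KO minus wildtype, with its 95% interval, for 26 GNAS transcripts with vehicle and 26 with isoproterenol. Transcripts with no count, or only a fraction of a count, in every library of a compared group are omitted, as is GNAS-209. Filled points mark edgeR adjusted p under 0.05. The Gαs mRNAs lie between -5.25 and -4.21, while GNAS-220, GNAS-232 and GNAS-255 have intervals that cross 0 in both panels.

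All 4 Gαs mRNAs were called. GNAS-210, which includes exon 3, had 5226, 4258 and 4652 counts in wildtype vehicle libraries and 340, 228 and 370 counts in Gαs KO vehicle libraries, and it fell by 4.21 on the log2 scale (edgeR adjusted p = 3.3e-10). GNAS-211, with CAG and without exon 3, had 4663, 3990 and 5224 counts and 252, 258 and 347 counts, and it fell by 4.32 (edgeR adjusted p = 1.71e-08). These 2 had the highest mean counts of the GNAS transcripts in wildtype cells, and no Gαs KO library of either came near the wildtype ones.
GNAS-201, short and without CAG, fell by 5.25 with vehicle and by 4.38 with isoproterenol. GNAS-207, long and with CAG, fell by 5.07 and 4.44. The remaining level was 2.63 to 5.46% of wildtype over the 4 mRNAs with vehicle and 4.71 to 5.57% with isoproterenol.

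The choice of exon 3 did not differ detectably. Among the 4 Gαs mRNAs, those with exon 3 were 42.3% in wildtype and 47.4% in Gαs KO cells with vehicle (exact permutation p = 0.6) and 43.0% and 40.2% with isoproterenol (exact permutation p = 0.6). Those with CAG were 41.6% and 43.9% (exact permutation p = 0.5), and 42.5% and 45.3% (exact permutation p = 0.7). Libraries overlapped in each of these 4 comparisons. Over all GNAS transcripts that either include exon 3 or skip it, exon 3 was in 24.6%, 42.3% and 41.9% of counts in wildtype vehicle libraries. In Gαs KO vehicle libraries it was in 44.4%, 36.8% and 43.4%. Transcripts that do neither, among them GNAS-255 and GNAS-232, are not in these shares. The first of these wildtype libraries is the one with the GNAS-202 counts, and GNAS-202 lacks exon 3.

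Among the transcripts from exon A/B, GNAS-234 had 1085, 2141 and 1879 counts in wildtype vehicle libraries and 72.9, 52.8 and 120 counts in Gαs KO vehicle libraries (log2 difference -4.73, edgeR adjusted p = 0.00318). GNAS-238 had 2248, 2244 and 1677 counts and 108, 110 and 0 counts (-5.07, edgeR adjusted p = 0.0076). GNAS-247, an A/B transcript without exon 3, had 5054, 1056 and 476 counts in wildtype vehicle libraries and 0 in all 6 Gαs KO libraries. All 3 were also called with isoproterenol, by -5.79 for GNAS-234 and -7.91 for GNAS-238.
Against the level of 3 counts in the Gαs KO group, GNAS-247 was at least 858-fold lower with vehicle and at least 468-fold lower with isoproterenol. It has no stretch of 31 bases of its own, so its 0 depends on how reads were divided. Loss of this transcript and the division of reads cannot be told apart here. Without wildtype vehicle library 1 the vehicle bound was 316-fold. GNAS-235 (-5.28 and -5.55) and GNAS-257 (-5.04 and -4.84) completed the A/B transcripts called in both treatments with a fall of over 4 on the log2 scale. Other called values moved by over 1.5 times on leaving out 1 Gαs KO library: GNAS-238 to -4.43 without vehicle library 3, GNAS-235 to -6.42 without vehicle library 1, and, without isoproterenol library 1, GNAS-234 to -5.18, GNAS-238 to -7.29 and GNAS-257 to -4.25 (-5.58 without isoproterenol library 3).
GNAS-229 had 282, 94.5 and 71.3 counts in wildtype vehicle libraries and none in the Gαs KO vehicle libraries, and it was at least 58.9-fold lower (edgeR adjusted p = 0.00442), or 34.2-fold without wildtype vehicle library 1. With isoproterenol it was not called (-4.23, edgeR adjusted p = 0.0837).

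A smaller fall was seen for GNAS-244, an A/B transcript that ends within the gene and has 148 stretches of its own. It had 45.3, 80.7 and 92.6 counts in wildtype vehicle libraries and 21.6, 30.9 and 27.6 counts in Gαs KO vehicle libraries, without overlap. It fell by 1.76 on the log2 scale with vehicle (edgeR adjusted p = 0.00914) and by 2.01 with isoproterenol (edgeR adjusted p = 0.00434), and 30.0% ± 5.55 and 26.2% ± 4.10 (SD, n = 3) of the wildtype mean remained. The vehicle call was lost without Gαs KO vehicle library 1 (-1.61, edgeR adjusted p = 0.077) or 3 (-1.69, edgeR adjusted p = 0.0681).

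The intron-holding transcripts were mostly not called: 1 of the 12 tested with vehicle and 1 with isoproterenol. GNAS-232 had 31.6, 60.1 and 74.5 counts in wildtype and 59.9, 50.2 and 69.8 counts in Gαs KO libraries with vehicle (-0.24, -1.0 to 0.53). GNAS-255 had 19.4, 37.8 and 55.9 counts and 58.7, 36.1 and 75.7 counts (0.24, -0.76 to 1.24). Both had sequence of their own and overlapping groups in both treatments.
With isoproterenol the differences were -0.12 for GNAS-232 and -0.41 for GNAS-255. GNAS-242, at chr20:58895163-58903556, had 3, 19.7 and 9.31 counts in wildtype and 32.7, 32.5 and 45 counts in Gαs KO vehicle libraries. These groups did not overlap, but the difference of 1.39 was not called (edgeR adjusted p = 0.279), and with isoproterenol it was -0.16.
GNAS-253, at chr20:58903741-58909776, likewise lay higher without overlap with vehicle and was not called (1.90, edgeR adjusted p = 0.459). GNAS-224 differed by 1.01 and 0.22, and neither was called.

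The 2 intron-holding transcripts that were called were GNAS-245 and GNAS-248. GNAS-245, which reads from intron 1 into exon 2, had 102, 146 and 164 counts in wildtype and 88.3, 113 and 149 counts in Gαs KO libraries with vehicle (-0.57, edgeR adjusted p = 0.529). With isoproterenol it had 77.9, 206 and 270 counts and 60.4, 56.0 and 75.5 counts. The groups overlapped with vehicle and, in CPM, with isoproterenol.
GNAS-245 was called lower with isoproterenol (-1.59, edgeR adjusted p = 0.0377), but not without wildtype library 2 or 3 or any 1 of the Gαs KO libraries (-1.79 to -1.16, edgeR adjusted p = 0.0781 to 0.214). GNAS-248 had 88.8, 11.6 and 13 counts in wildtype vehicle libraries and was listed at 0 in all Gαs KO vehicle libraries, at least 14.8-fold lower (edgeR adjusted p = 0.0112). Without wildtype vehicle library 1 the bound was 5.09-fold.

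Among the rest, GNAS-228 was called with vehicle (at least 6.61-fold lower), and GNAS-226 and GNAS-216, a NESP55 transcript, with isoproterenol (at least 13.5-fold and 4.60-fold lower). The vehicle calls of GNAS-228 and GNAS-248 were lost on leaving out any 1 Gαs KO vehicle library (edgeR adjusted p = 0.0512 to 0.0968), and the isoproterenol call of GNAS-216 on leaving out any 1 Gαs KO isoproterenol library (edgeR adjusted p = 0.0656 to 0.07). The other transcripts named by their counts, GNAS-202, GNAS-204, GNAS-205, GNAS-208, GNAS-227, GNAS-233, GNAS-236, GNAS-237, GNAS-239, GNAS-246 and GNAS-251, were not called in either treatment, and GNAS-209 was not either.
With only wildtype and Gαs KO vehicle libraries in the fit, which also left fewer transcripts past the filter on low counts, 5 of 24 transcripts were called lower in place of 13 of 34. The other 20 transcripts, neither named by their counts nor tested, held at most 20.8 counts in any library, and 4 of them had no count.

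Whether the transcripts of GNAS changed by different amounts was tested directly. The gene-level test of isoform usage (edgeR diffSpliceDGE) gave F = 6.45 and an adjusted p of 8.74e-18 with vehicle, where 3.89% of 11354 genes were called, and F = 6.51 and an adjusted p of 7.66e-18 with isoproterenol, where 1.73% were called. The Simes combination gave an adjusted p of 4.63e-10 and 3.82e-08, with 2.67% and 1.67% called. On simulated counts for the vehicle comparison, the F test recovered 34 of 198 altered genes and made 60 false calls. The Simes combination recovered 17 of the 198 and made 95 false calls. The p-values of both are to be read with these error rates. By single transcripts, usage was called different from the rest of the gene for GNAS-202 and GNAS-247 with vehicle, and for these and GNAS-238 with isoproterenol, which have 0 to 24 stretches of their own. It was not called for any intron-holding transcript tested in either treatment. Nor was it called for GNAS-220, with 4.48 with vehicle and 3.89 with isoproterenol (diffSpliceDGE adjusted p = 0.144 and 0.304). Relative to the rest of the gene, GNAS-202 differed by -4.40 on the log2 scale with vehicle and by 5.17 with isoproterenol, which are opposite directions, and the vehicle value includes the 7831 counts of the first wildtype library.

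The β-arr1/2 KO line is an edited line in which GNAS was not the target. GNAS stood at 1582, 1646 and 1535 CPM with vehicle and 1201, 1266 and 1201 CPM with isoproterenol. The vehicle libraries lay within the wildtype range set by the first library, and the difference from wildtype was not called (0.27, -0.01 to 0.55; edgeR adjusted p = 0.129; 33.5% of genes called). Without that first wildtype library GNAS was higher in β-arr1/2 KO cells by 0.53 (edgeR adjusted p = 1.03e-06), and without GNAS-202 in the sum by 0.43 (edgeR adjusted p = 0.000527).
With isoproterenol the difference was 0.00 (-0.28 to 0.28; edgeR adjusted p = 1; 30.0% of genes called). The Gαs mRNAs were higher in β-arr1/2 KO cells with vehicle, at 1090, 1041 and 1013 CPM (0.43, edgeR adjusted p = 0.00152), a call that was lost when only these groups were fitted (edgeR adjusted p = 0.0559), and they differed by 0.07 with isoproterenol.

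The intron-holding transcripts were higher in β-arr1/2 KO than in wildtype cells in both treatments. They stood at 39.4, 39.2 and 38.9 CPM with vehicle and at 50.3, 49.2 and 43.6 CPM with isoproterenol, above every wildtype and every Gαs KO library of the same treatment. The log2 difference from wildtype was 1.00 (0.63 to 1.38; edgeR adjusted p = 0.000382) with vehicle and 0.83 (0.46 to 1.20; edgeR adjusted p = 0.00179) with isoproterenol.
Against this line, the intron-holding transcripts were lower in Gαs KO cells by 2.39-fold with vehicle (edgeR adjusted p = 5.44e-05) and by 2.97-fold with isoproterenol (edgeR adjusted p = 5.24e-06), where the Gαs mRNAs were lower by 30.2-fold and 20.7-fold. GNAS-220 was lower than in β-arr1/2 KO cells with vehicle (1.77-fold, edgeR adjusted p = 0.0213) but not called with isoproterenol (1.26-fold, edgeR adjusted p = 0.337). At the level of single transcripts, 14 of 34 were called lower and none higher in Gαs KO against β-arr1/2 KO cells in each treatment (1.55% and 2.56% of all transcripts lower; 1.21% and 1.81% higher). None was called between β-arr1/2 KO and wildtype cells by edgeR, with 8 and 3 at an unadjusted p under 0.05, while DESeq2 called 6 and 3 higher. With edgeR at other settings, 3 and 1 were higher under a 10-count filter, 1 with vehicle under upper-quartile scaling, 2 with vehicle without wildtype vehicle library 3, and 1 with isoproterenol when only these groups were fitted. EdgeR called 4.32% and 3.47% of all transcripts there.

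Isoproterenol for 1 h gave no called difference in GNAS in any line. The log2 difference was -0.11 in wildtype (edgeR adjusted p = 0.715; 0.464% of genes called), -0.38 in β-arr1/2 KO (edgeR adjusted p = 0.346; 1.13% called) and 0.03 in Gαs KO cells (edgeR adjusted p = 1). In β-arr1/2 KO cells all 3 isoproterenol libraries lay under all 3 vehicle libraries, and without GNAS-202 in the sum the fall of 0.37 was called (edgeR adjusted p = 0.0234). In Gαs KO cells edgeR called 0.0% of genes, with 164 genes at an unadjusted p under 0.05. No GNAS transcript was called for isoproterenol in any line by edgeR, with 2, 3 and 7 at an unadjusted p under 0.05 in wildtype, β-arr1/2 KO and Gαs KO cells, and DESeq2 called 1 lower, in β-arr1/2 KO cells. Of all transcripts 0.0839%, 0.172% and 0.00294% were called.
The response of GNAS did not differ detectably between lines, by -0.27 (edgeR adjusted p = 1; 0.167% of genes called) for β-arr1/2 KO minus wildtype and 0.14 (edgeR adjusted p = 0.891; 0.161% called) for Gαs KO minus wildtype. Without the first wildtype vehicle library the former was -0.53 and was called (edgeR adjusted p = 0.00166).

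The partners of Gαs were described from a list of 39 receptors, G protein subunits, chaperones, adenylyl cyclases, protein kinase A subunits, phosphodiesterases and cyclic AMP sensors, of which 35 were tested. In Gαs KO against wildtype cells 12 were called lower and none higher with vehicle, where 17.1% of all genes were called lower and 14.2% higher. With isoproterenol 9 were lower and none higher, with 15.8% and 14.1% of all genes. The median log2 difference of the list was -0.16 and -0.18, beside 0.01 over all genes in both.
With vehicle the count of 12 dropped to 4 when only the compared groups were fitted, and 6 to 13 were called when 1 library was left out (0 to 5 higher).

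GNAL encodes the alpha subunit most like Gαs, known from the olfactory system. It stood at 67.8, 78.5 and 72.3 CPM in wildtype vehicle cells and at 34.0, 36.3 and 36.3 CPM in Gαs KO vehicle cells, and with isoproterenol at 73.6, 82.4 and 81.2 CPM and 36.4, 39.8 and 36.4 CPM. No libraries overlapped, and GNAL fell by 1.04 (edgeR adjusted p = 1.15e-07) and 1.07 (edgeR adjusted p = 7.71e-08) on the log2 scale. In β-arr1/2 KO cells it averaged 48.5 and 46.6 CPM, between the other lines.

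Of the receptors, PTGER2, the EP2 prostaglandin receptor, fell by 2.46 with vehicle and by 2.26 with isoproterenol, from 5.55, 5.88 and 7.01 CPM to 0.927, 1.27 and 1.14 CPM with vehicle, without overlap. ADORA2B, an adenosine receptor, fell by 1.08 and 1.25. PTGER4, the EP4 prostaglandin receptor, fell by 0.56 and 0.95, but its vehicle call (edgeR adjusted p = 0.0422) was lost without wildtype vehicle library 3 or any 1 of the Gαs KO vehicle libraries (-0.61 to -0.38).

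Of the enzymes, ADCY1, an adenylyl cyclase, fell by 0.65 and 0.53, while ADCY3 and ADCY9, others of this family, fell by 0.93 and 0.26 with vehicle. With isoproterenol these differed by -0.67 and -0.08 and were not called, and the response to isoproterenol was not called different between Gαs KO and wildtype cells for either (edgeR adjusted p = 0.896 and 0.889), so a difference between treatments was not shown. PDE4D, a cyclic AMP phosphodiesterase, fell by 0.90 and 1.39. PDE4B, another, fell by 1.14 and 1.5 at under 3 CPM, but its vehicle call was lost on leaving out any vehicle library other than wildtype library 1 (-1.30 to -1.03). PDE4A, of the same family, fell by 0.41 with vehicle.
PRKAR1A, a regulatory subunit of protein kinase A, fell by 0.29 with vehicle, where libraries overlapped, and by 0.46 with isoproterenol. Its vehicle call was also lost on leaving out any vehicle library other than wildtype library 1 (-0.30 to -0.21). PRKAR2A, another regulatory subunit, fell by 0.28 and 0.40.
The β and γ subunits that bind Gαs were not called in either treatment: all 10 had log2 differences between -0.45 (GNB4 with isoproterenol) and 0.55 (GNG11 with vehicle).

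**Figure D5:**
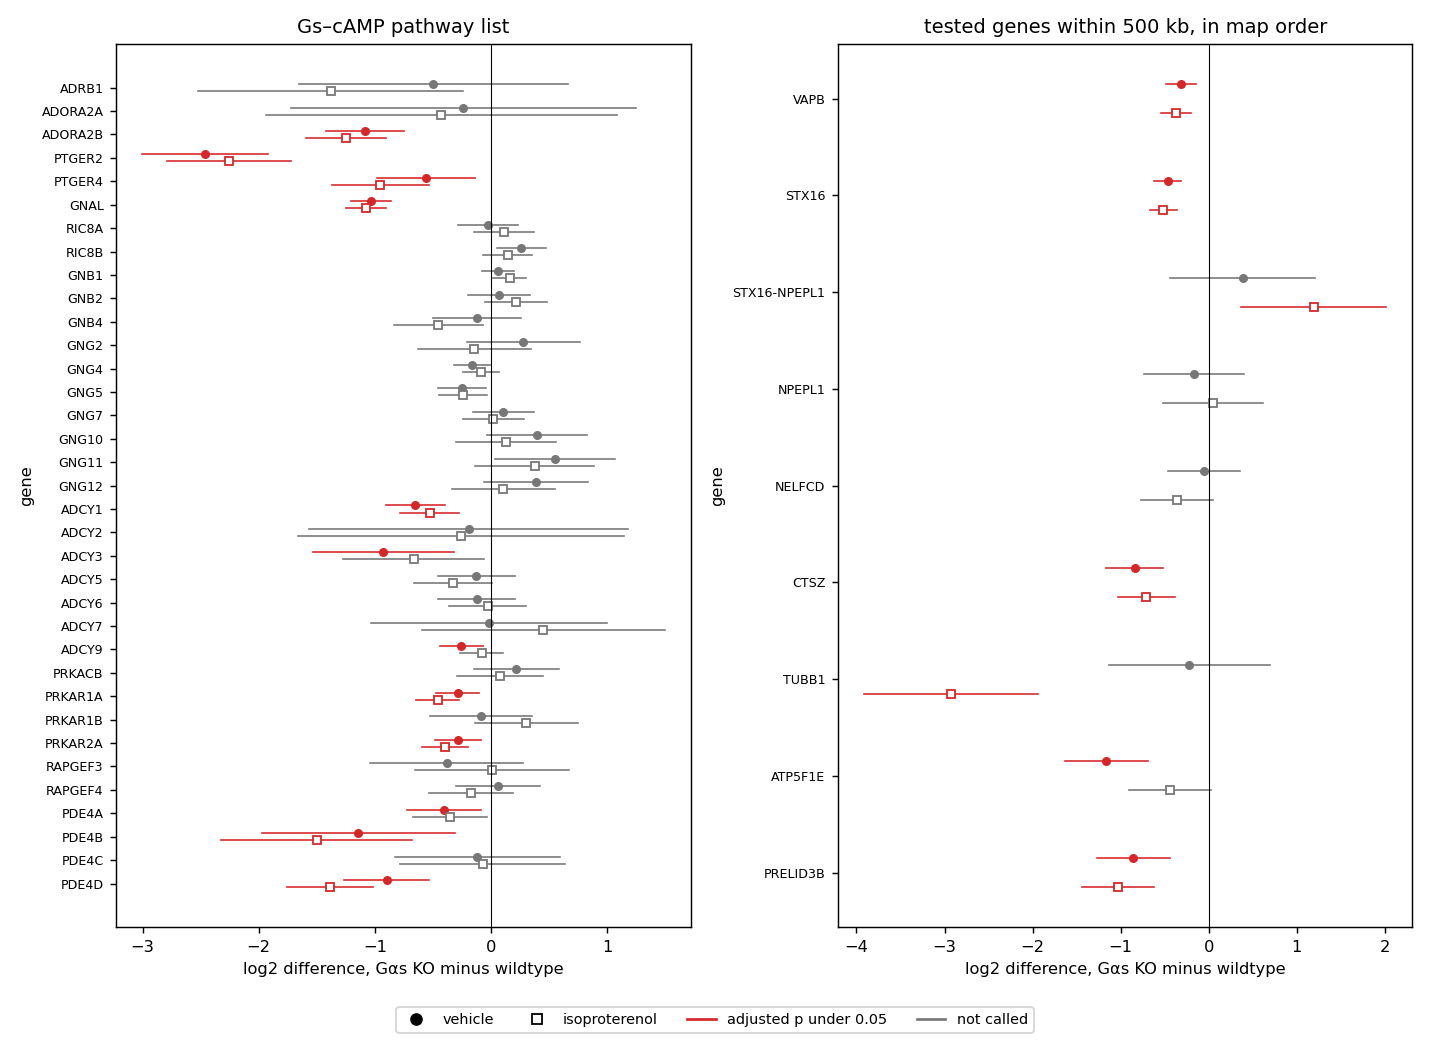
Log2 difference, Gαs KO minus wildtype, with its 95% interval, for the 35 tested partners of Gαs and the 9 tested genes within 500 kb of GNAS, with vehicle (circles) and isoproterenol (squares); red marks edgeR adjusted p under 0.05. PTGER2 lies lowest among the partners at -2.46, and the called neighbours other than STX16-NPEPL1 lie left of 0.

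Genes near GNAS were described because the edit lies on this stretch of chromosome. Of 33 annotated genes within 500 kb, 15 had a row and 9 were tested. With vehicle 5 were called lower and none higher in Gαs KO against wildtype cells: VAPB (-0.32), STX16 (-0.46), CTSZ (-0.84), PRELID3B (-0.86) and ATP5F1E (-1.16). With isoproterenol VAPB, STX16, CTSZ and PRELID3B were again lower (-0.37, -0.52, -0.71 and -1.03), TUBB1 was lower and STX16-NPEPL1 higher. The share of all genes called lower was 17.1% and 15.8%, and the median over the 9 genes was -0.32 and -0.44, beside 0.01 over all genes.

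STX16, a syntaxin of the Golgi whose gene holds a known control element of GNAS imprinting, stood at 157, 189 and 182 CPM in wildtype and at 131, 121 and 131 CPM in Gαs KO cells with vehicle. VAPB, a membrane protein of the endoplasmic reticulum, fell by less. PRELID3B stood at 115, 268 and 234 CPM in wildtype and at 110, 116 and 115 CPM in Gαs KO cells with vehicle, and its first wildtype library lay beside the knockout ones.
CTSZ, a lysosomal protease, was at 225, 124 and 136 CPM against 89.4, 91.6 and 89.6 CPM, and again the first wildtype library stood apart. ATP5F1E, a subunit of ATP synthase, was at 162, 79.2 and 86.4 CPM against 47.3, 51.4 and 47.5 CPM with vehicle, and its difference of -0.44 with isoproterenol was not called (edgeR adjusted p = 0.154). TUBB1 (-2.93 with isoproterenol) never exceeded 1.32 CPM in wildtype or Gαs KO cells, and it overlaps ATP5F1E on the other strand. STX16-NPEPL1 (1.19, edgeR adjusted p = 0.0295) is a read-through that shares exons with STX16 and NPEPL1, and its call was lost on leaving out any isoproterenol library other than wildtype library 2 (0.87 to 1.23).
In the other edited line the counts differed: in β-arr1/2 KO against wildtype cells 3 of the 9 were higher and none lower with vehicle, and 5 higher and 1 lower with isoproterenol (15.7% and 14.3% of all genes higher; 17.9% and 15.7% lower). With only the compared groups fitted, 1 of the neighbours in place of 5 was called lower with vehicle.

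Across the 18 libraries the genes whose log2 level followed GNAS most closely were DEPP1 (Pearson r = 0.996), PUDP (0.994), TNFRSF10B (0.993), FOXE1 (0.993) and SPATA16 (0.992). The points share 6 groups, and the likeness follows the step between the Gαs KO line and the other lines: DEPP1 averaged 678 and 570 CPM in wildtype and 59.98 and 59.2 CPM in Gαs KO cells, while PUDP averaged 37.0 and 36.7 CPM in wildtype and was at 0 in all Gαs KO libraries.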

How the data were processed

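Poly-A selected RNA of 18 libraries (3 lines, vehicle or isoproterenol, 3 libraries each) was sequenced as paired reads by the authors, who deposited expected counts per Ensembl transcript from Salmon 1.7.0. The strand setting is not given in the sources used here. Transcripts were assigned to genes by unversioned identifier with GENCODE v29 on GRCh38, which matched 161838 of 184844 transcripts in 34287 genes and kept 92.9 to 93.8% of the counts of each library. Of the GNAS transcripts, 43 of 56 had the same version. Sequences were read from the transcript sequences of that GENCODE release.

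Expected counts were rounded, scaled by TMM and filtered with filterByExpr, leaving 15530 genes and 67941 transcripts. Each set was fitted over all 18 libraries with 1 coefficient per group by edgeR 4.0.16 (quasi-likelihood test, Benjamini-Hochberg adjustment over everything tested, called under 0.05), in R 4.3.3. Sums over GNAS transcripts were added to the gene table in a separate fit. DESeq2 1.42.0 was an alternative. Shares were compared by exact two-sided permutation over libraries, adjusted over 117 comparisons. Transcripts with a mean of at least 10 counts in any group are named, as are the 5 genes with the highest Pearson correlation to GNAS. One gene of the list of Gαs partners is not reported here. Members and lists were chosen with earlier results of these data known.

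The libraries held 17908597 to 25019834 expected counts (median 20419460). On simulated counts the gene test recovered 80 to 98% of changed genes by fold size, and the transcript test 14 to 34%, so a transcript that was not called may still differ. The isoform usage test was weakly calibrated there. A floor of 3 counts stands for a group at 0, and intervals and floors do not cover the error of dividing reads among transcripts.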

Additional observations from a re-analysis of the deposited data

How the results depend on the processing

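In Gαs KO against wildtype cells, the falls of GNAS, of the Gαs mRNAs and of the NESP55 class, and the fall of the intron-holding transcripts with isoproterenol, kept their direction and call under every alternative run. Leaving GNAS-202 out of the GNAS sum gave 0.43 for β-arr1/2 KO minus wildtype with vehicle (called), 0.0569 for isoproterenol in wildtype, -0.37 in β-arr1/2 KO (called) and -0.0466 for the response of Gαs KO minus wildtype. Fitting only the groups compared gave -0.37 in β-arr1/2 KO (called) and -0.00342 for β-arr1/2 KO minus wildtype with isoproterenol, and counts that were not rounded gave -0.000165 for the latter. Fitting only the groups compared also left 5 GNAS transcripts called lower with vehicle, losing GNAS-228, GNAS-229, GNAS-235, GNAS-238, GNAS-244, GNAS-247, GNAS-248 and GNAS-257. GNAS-220 by itself, apart from the class of A/B and Gαs starts, differed by 0.20 with vehicle and -0.31 with isoproterenol and was not called. For internal starts upper-quartile scaling gave 0.0086 with vehicle and -0.55 with isoproterenol, and a threshold of 0.01 ended the call at -0.61. Upper-quartile scaling gave -0.016 for the Gαs mRNAs with isoproterenol in wildtype. Over coding transcripts alone exon 3 was in 43.4% of counts in wildtype with isoproterenol, 47.6% in Gαs KO with vehicle and 42.5% in β-arr1/2 KO with isoproterenol.

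Of the partners of Gαs, the lower calls with vehicle numbered 7 without a filter, 4 with only the groups compared, 4 at an absolute log2 difference of at least 1 and 5 at 0.01. The higher calls with vehicle numbered 1 under upper-quartile scaling, a 10-count filter or DESeq2. With isoproterenol 14 were lower with only the groups compared and 5 at a log2 difference of at least 1, and 1 was higher under upper-quartile scaling, 6 with only the groups compared and 1 by DESeq2. Of the neighbours, 1 was lower with vehicle with only the groups compared and 1 at a log2 difference of at least 1, 2 were lower with isoproterenol at that limit, and 0 were higher at 0.01 (edgeR). The cause was not tested for any of these.

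With 1 library left out, GNAS differed between β-arr1/2 KO and wildtype by 0.14 to 0.53 with vehicle, the latter without wildtype vehicle library 1, and by -0.0283 to 0.0353 with isoproterenol. Its response to isoproterenol was -0.24 to 0.15 in wildtype and -0.0223 to 0.0886 in Gαs KO, and the responses differed by -0.53 to -0.14 for β-arr1/2 KO and -0.12 to 0.27 for Gαs KO. Internal starts spanned -0.28 to 0.16 and -0.80 to -0.48, and the Gαs mRNAs -0.0655 to 0.0660 for isoproterenol in wildtype. With vehicle GNAS-202 spanned -10.33 to 5.53, GNAS-220 -0.10 to 0.37, GNAS-232 -0.53 to 0.12, GNAS-233 -1.43 to 6.67, GNAS-255 -0.0898 to 0.73 and TUBB1 -0.47 to 0.16. With isoproterenol GNAS-205 spanned -0.98 to 5.49, GNAS-224 -0.12 to 0.79, GNAS-232 -0.30 to 0.16, GNAS-242 -0.42 to 0.25 and GNAS-246 -1.92 to 3.64. Partners called with vehicle numbered 6 to 13 lower and 0 to 5 higher, and neighbours called higher 0 to 2 with vehicle and 0 to 1 with isoproterenol.

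Libraries with the same number did not deviate together (correlations -0.0994 to 0.0769). Such correlations cannot tell whether these libraries were prepared together, and the main fit did not pair them. With a replicate block GNAS differed by -4.31 and -4.18, 13 transcripts were lower in each treatment and the usage F was 5.48 and 5.64. The block turned GNAS-233 with vehicle to 0.57 and ended the vehicle call of PTGER4.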
